A study of Sus scrofa with 12 samples.

Results

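The 10 genes of activin, nodal, follistatin and their receptors were followed in RNA sequencing data of pig cells induced towards endothelium and of a porcine endothelial cell line. They were chosen by name and found by their Ensembl pig gene symbol, and all 10 of the 10 were present among the 19681 gene identifiers with a value. The genes are FST and FSTL3, which encode follistatin and follistatin like 3, the activin beta subunit genes INHBA and INHBB, the ligand gene NODAL, its inhibitor gene LEFTY2, the type I receptor genes ACVR1 and ACVR1B, and the type II receptor genes ACVR2A and ACVR2B.

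The study compared stages of endothelial induction of porcine induced pluripotent stem (iPS) cells. Each of the 4 groups had 3 libraries with the letters A, B and C. They are called biological replicates, but it is not given whether they came from separate cultures, so p-values measure only the spread between these libraries, which may be technical. IEC2 cells had spent 2 days in endothelial differentiation medium with CHIR99021, an inhibitor of the kinase GSK3β. IEC4 cells had then been cultured in the same basal medium with BMP4, FGF2 and VEGF until day 4, and IEC12 cells had gone on in endothelial growth medium until day 12. The IEC12 libraries were made before any sorting for CD31, the protein of PECAM1. All IEC cells therefore shared the CHIR99021 step, and neither activin nor nodal is named among the factors added. AOC is a line of porcine endothelial cells that did not pass through the induction, so the origin of the cells, their culture and their stage cannot be told apart in any comparison with AOC.

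Activins are dimers of inhibin beta subunits. Activins and nodal bind a type II receptor, ACVR2A or ACVR2B, which then activates the type I receptor ACVR1B, and the complex phosphorylates SMAD2 and SMAD3. Nodal also needs a co-receptor of the Cripto family, and LEFTY2 blocks nodal and is itself a well known target of nodal signalling. Follistatin and FSTL3 are secreted proteins that bind activin and keep it from its receptors. ACVR1 is a type I receptor that pairs with the same type II receptors but is best known for passing on BMP signals through SMAD1 and SMAD5. In the early embryo and in stem cells, activin and nodal signals are known for keeping pluripotency and for inducing mesoderm and endoderm.

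Values are FPKM, which divide the fragments of a gene by its transcript length and by the fragments of the library, so levels of different genes are compared per length. The number of reads behind a library is unknown, since FPKM does not keep it. The FPKM of a library summed to between 335976.4 and 457193.7, and 8357 to 10467 genes reached an FPKM of 1. IEC12 replicate A stood farthest from its own group, with a mean absolute difference of 0.446 on the log2 scale against 0.217 to 0.379 in the other libraries. An FPKM of 0 can be a failed estimate and is given here as listed at 0. Of a list of genes used by every cell, 15 were matched by symbol and the rest were not. None of the 15, GAPDH and ACTB among them, was at 0 in any library.

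The labelled cell types were set against their markers before the results. Of 10 endothelial markers 8 were matched, and their summed FPKM was 263 to 383 in the AOC libraries but 3.27 to 5.7 in those of IEC2, 1.7 to 2.03 in those of IEC4 and 0.415 to 0.531 in those of IEC12. CDH5, the cadherin of endothelial junctions, was listed at 0 in all 9 IEC libraries and lay between 103 and 137 in AOC. PECAM1 was 91.7 to 131 FPKM in AOC and 0.0197 to 0.105 in IEC12. KDR, most of the sum in IEC2, went the other way, at 2.42 to 3.99 in IEC2 and 1.31 to 1.46 in AOC. In IEC12 KDR was at most 0.0374. The RNA thus went against a reading of the unsorted IEC12 libraries as mainly endothelial, and the groups are called here by their names. The study itself found CD31 protein by flow cytometry on only a minority of the cells at day 12. How this relates to the low PECAM1 transcript was not tested. Of 6 epithelial markers 5 were matched, and their sum was 519 to 1433.7 FPKM in IEC4, 108 to 144 in IEC2, 41.8 to 86.6 in IEC12 and 2.21 to 4.05 in AOC. In the IEC libraries this sum was mostly KRT8 and CLDN6. CLDN6 was 86.9 to 130 in IEC2 and 37.1 to 70.5 in IEC12, while KRT8 and KRT18 overlapped between these groups. CDH1 went the other way, at 0.0613 to 0.229 in IEC2 and 0.281 to 0.418 in IEC12. So did EPCAM, listed at 0 in IEC2 and 0.099 to 0.333 in IEC12. In IEC4 EPCAM was 0.166, 0.208 and 2.21. The sum of 3 neural markers was 378 to 406 in IEC12 and at most 30.6 in the other groups, and nearly all of it in IEC12 was STMN2, at 370 to 397. Of the others, TUBB3 was highest in AOC (6.4 to 9.55) and MAP2 in IEC4 (up to 15.5). Smooth muscle and fibroblast markers, all 8 matched, summed to between 80.3 and 112 in IEC2, at most 62.2 in IEC4, 61.2 to 79.3 in IEC12 and 9.72 to 20.6 in AOC. In the IEC libraries this sum was mostly COL3A1, 66.0 to 108 in IEC2 and 40.6 to 52.9 in IEC4. COL1A1 and ACTA2 went the other way, from at most 0.381 and 0.146 in IEC2 to 2.18 to 9.86 and 1.31 to 4.77 in IEC4. In AOC, where the sum was lowest, ACTA2 was 4.65 to 12.8. The sum of 3 blood markers was 23.5 to 38.6 in AOC and at most 9.18 elsewhere. In AOC it was mostly CD34 (18.2 to 34.1), which endothelial cells also express, while PTPRC, found in nearly all blood cells, was listed at 0 in AOC and highest in IEC4 (2.14 to 3.49). SPI1 was highest in IEC2 (5.35 to 9.16). The 2 pluripotency markers matched of 6 summed to 3.3 to 6.39 in IEC4 and at most 1.52 elsewhere. In IEC4 this sum was mostly LIN28A (3.01 to 5.86). NANOG, the other one, was 0.236 to 0.53 in IEC4 and 0.248 to 1.07 in IEC12. None of 3 endoderm markers was matched.

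FST had the highest mean of the 10 genes in IEC4, IEC12 and AOC. Of the days sampled, it was low at day 2, highest at day 4 and still well above its day 2 level at day 12. The gene lies at chr16:32806341-32811382 on Sscrofa11.1 in the RefSeq annotation, identifier ENSSSCG00000016892. Its FPKM was 2.52, 2.49 and 3.25 in IEC2 (replicates A, B and C), 203, 153 and 259 in IEC4, 37.7, 63.3 and 58.8 in IEC12, and 126, 104 and 102 in AOC. No library of any group overlapped with those of another group, and the order from low to high was IEC2, IEC12, AOC and IEC4. The means were 2.76 ± 0.43, 53.3 ± 13.6, 110.0 ± 13.1 and 205 ± 52.8 FPKM in that order (SD, n = 3). In IEC4 the mean of FST was above those of 98.7% of all identifiers, against 63.8% in IEC2, 93.8% in IEC12 and 96.7% in AOC.

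All differences between groups were tested with limma on log2(FPKM + 1), on which the change of a low gene looks smaller than it is, and p-values were adjusted by the Benjamini-Hochberg method over all genes tested. FST rose from IEC2 to IEC4 by 5.75 on this scale (standard error 0.236, adjusted p = 1.58e-06), which was 74.4 times in linear FPKM and the 5th largest rise of 10542 genes tested. From IEC4 to IEC12 it fell by 1.93 (standard error 0.236, adjusted p = 0.000276). The net rise from IEC2 to IEC12 was 3.83 (standard error 0.236, adjusted p = 3.48e-06), or 19.3 times in linear FPKM.

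AOC had more FST transcript than IEC2 and IEC12 and less than IEC4. The difference from IEC2 was 4.89 (standard error 0.218, adjusted p = 4.33e-09) and that from IEC12 was 1.06 (standard error 0.218, adjusted p = 0.00127). Against IEC4 it was -0.86 (standard error 0.218, adjusted p = 0.00412), and with median-of-ratios scaling it was -0.34 (adjusted p = 0.139), which did not pass the test (0.00133 to 0.139 over 13 alternative settings). Of the IEC groups, IEC4 had both the highest FST and the highest epithelial sum, and replicate C was highest in both. AOC had high FST with the lowest epithelial sum. The part of the cell types in these levels was not tested, and in bulk libraries fewer cells of a type and less RNA per cell cannot be told apart.

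**Figure D1:**
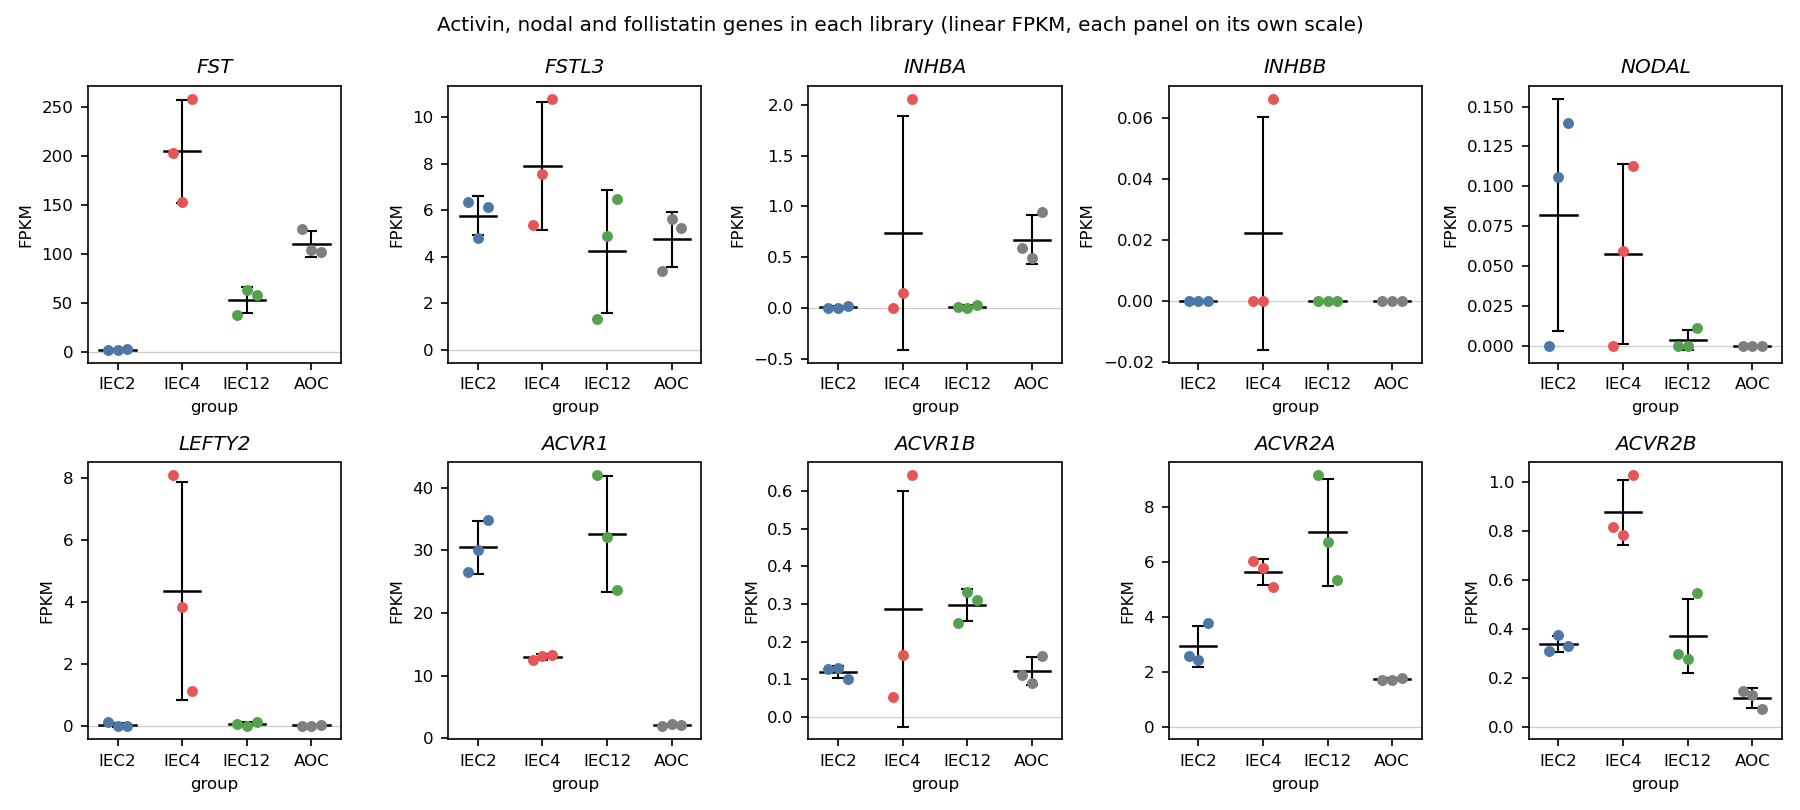
FPKM of each of the 10 genes (vertical axes, linear and different for each gene) in the 4 groups; points are the 3 libraries of a group and the bars are the mean ± SD. FST reached 153 to 259 FPKM in IEC4 against 2.49 to 3.25 in IEC2, while INHBB and NODAL stayed at or below 0.14 FPKM in every library.

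FSTL3 did not follow FST. This gene (ENSSSCG00000037102, chr2:77656655-77662608) encodes the shorter relative of follistatin. Its FPKM was 6.36, 4.82 and 6.14 in IEC2, 5.36, 7.57 and 10.8 in IEC4, 1.34, 4.9 and 6.5 in IEC12, and 3.4, 5.63 and 5.24 in AOC. The libraries of every pair of groups overlapped, and FSTL3 passed the test in none of the 6 comparisons. The 95% interval of the difference was -0.54 to 1.25 from IEC2 to IEC4, -1.77 to 0.01 from IEC4 to IEC12 and -1.42 to 0.37 from IEC2 to IEC12, so changes of that size are not excluded. For AOC the interval was -1.08 to 0.58 against IEC2, -1.44 to 0.22 against IEC4 and -0.56 to 1.1 against IEC12. Replicate A of IEC12, which stood apart from its group, had the lowest FSTL3 of all libraries. Without that library the difference of AOC from IEC12 was -0.23 in place of 0.27, and neither passed the test.

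Between IEC2 and the other groups, the larger antagonist transcript changed from FSTL3 to FST. The share of FST in the sum of FST and FSTL3 was 28.4, 34.1 and 34.6% in the 3 IEC2 libraries. It was 95.3 to 97.4% in IEC4, 90.1 to 96.6% in IEC12 and 94.8 to 97.4% in AOC. IEC2 stood below every other library, and the other groups overlapped.

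The ligand genes were near the lower end of the measured range. INHBA (ENSSSCG00000035077), the subunit gene of activin A, was listed at 0 in 4 libraries and reached an FPKM of 1 in 1 library. Its FPKM was 0, 0 and 0.0218 in IEC2, 0, 0.15 and 2.06 in IEC4, 0.0087, 0 and 0.0334 in IEC12, and 0.59, 0.488 and 0.943 in AOC. All AOC libraries lay above all those of IEC2 and IEC12, and IEC4 spanned the whole range through its replicate C. The mean of IEC4, 0.738 ± 1.15 FPKM (SD, n = 3), rests on that library. Replicate C of IEC4 also had the highest ACVR1B and the highest epithelial sum of all 12 libraries, 1433.7 FPKM against 519 and 678 in replicates A and B, and the part of this in its INHBA was not tested. The RefSeq entry with the symbol INHBA is not classed as protein coding and is not tied to the Ensembl identifier, so no position is given and the INHBA values are uncertain.

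INHBB (ENSSSCG00000038610, chr15:30999994-31004405), the subunit gene of activin B, was listed at 0 in 11 of 12 libraries, with 0.0663 FPKM in IEC4 replicate C. NODAL (ENSSSCG00000039399, chr14:73350358-73357064) was 0, 0.106 and 0.14 FPKM in IEC2 and 0, 0.0595 and 0.113 in IEC4. It was listed at 0 in 2 IEC12 libraries, with 0.011 in the other, and at 0 in all 3 AOC libraries. At these levels, and with the depth unknown, an order of the groups cannot be read for INHBB or NODAL. INHBA, INHBB and NODAL fell below the filter of the test, which asked for 3 or more libraries with an FPKM of 1 or above. In a fit without the filter none of them was called in any of the 6 comparisons, and INHBA in AOC differed from IEC2 by 0.72 (adjusted p = 0.118) and from IEC12 by 0.71 (adjusted p = 0.128).

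FST was therefore far above the activin subunit transcripts wherever both were listed. In AOC the FPKM of FST was 213, 212 and 108 times that of INHBA in replicates A, B and C. In IEC4 replicate C, where INHBA was highest, it was 125 times.

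LEFTY2 appeared at day 4 and was nearly absent elsewhere. The gene (ENSSSCG00000032299, chr10:13849052-13853438) had an FPKM of 8.08, 3.83 and 1.12 in IEC4. It was 0.105, 0 and 0 in IEC2, 0.0515, 0 and 0.132 in IEC12, and 0, 0 and 0.0373 in AOC. The 3 IEC4 libraries lay above the other 9 and differed among themselves, with replicate A highest. LEFTY2 passed the filter through these 3 libraries alone, so a difference between IEC4 and the other groups was built into its being tested. It rose from IEC2 to IEC4 by 2.13 (standard error 0.417, adjusted p = 0.00343) and fell from IEC4 to IEC12 by 2.1 (standard error 0.417, adjusted p = 0.00339), and AOC was below IEC4 by -2.16 (standard error 0.375, adjusted p = 0.000307). With a pseudocount of 0.1 these values were 4.74, -4.48 and -4.93. IEC2, IEC12 and AOC overlapped in LEFTY2 and differed by no more than -0.07 to 0.04, none past the test. The epithelial sum was highest in IEC4 too, but ran opposite to LEFTY2 among its replicates, and its part was not tested.

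ACVR1 was the most abundant receptor gene and moved in the direction opposite to FST between stages. This type I receptor gene (ENSSSCG00000015874, chr15:64749478-64891653) had an FPKM of 26.5, 30.0 and 34.9 in IEC2, 12.5, 13.2 and 13.3 in IEC4, 42.0, 32.1 and 23.6 in IEC12, and 1.89, 2.35 and 2.1 in AOC. AOC lay below all IEC libraries and IEC4 below those of IEC2 and IEC12, which overlapped. ACVR1 fell from IEC2 to IEC4 by 1.16 (standard error 0.2, adjusted p = 0.00176) and rose from IEC4 to IEC12 by 1.22 (standard error 0.2, adjusted p = 0.00124). The 95% interval of the net change from IEC2 to IEC12 was -0.38 to 0.51, and the test was not passed (adjusted p = 0.817). In AOC the gene was lower than in IEC2 by -3.33, than in IEC4 by -2.17 and than in IEC12 by -3.4 (standard error 0.186 each, adjusted p = 2.72e-08, 1.11e-06 and 2.78e-08).

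ACVR1B (ENSSSCG00000000233, chr5:17314322-17350726), which encodes the type I receptor of activin and nodal, stayed below 1 FPKM in all 12 libraries and was not tested. Its FPKM was 0.127, 0.131 and 0.102 in IEC2, 0.0543, 0.166 and 0.642 in IEC4, 0.25, 0.332 and 0.312 in IEC12, and 0.112, 0.0912 and 0.163 in AOC. The IEC12 libraries were above those of IEC2 and AOC, while IEC4 overlapped with every group. In the fit without the filter ACVR1B was called in no comparison. Per length, ACVR1 was 12.9 to 343 times ACVR1B over the 12 libraries.

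Of the type II receptors, ACVR2A rose during induction. The gene (ENSSSCG00000015669, chr15:4177333-4259056) had an FPKM of 2.58, 2.41 and 3.77 in IEC2, 6.03, 5.76 and 5.1 in IEC4, 9.16, 6.72 and 5.33 in IEC12, and 1.71, 1.7 and 1.78 in AOC. IEC4 and IEC12 overlapped, and the other groups did not. The net rise from IEC2 to IEC12 was 1.03 (standard error 0.217, adjusted p = 0.00421). The rise from IEC2 to IEC4 was 0.77 (standard error 0.217, adjusted p = 0.02). That call was lost without IEC4 replicate A (0.73, adjusted p = 0.0615), without IEC4 replicate B (0.76, adjusted p = 0.06), without IEC2 replicate A (0.71, adjusted p = 0.0608), without IEC2 replicate B (0.68, adjusted p = 0.0698) and with median-of-ratios scaling (0.57, adjusted p = 0.0941), and over 14 alternatives the adjusted p ran from 0.00704 to 0.0941. The difference of IEC12 from IEC4 was 0.26, with a 95% interval of -0.23 to 0.74 (adjusted p = 0.359). AOC had less ACVR2A than IEC4 by -1.28 (adjusted p = 0.000104) and than IEC12 by -1.54 (adjusted p = 2.89e-05), with a standard error of 0.192 each. Against IEC2 the difference was -0.5 (standard error 0.192, adjusted p = 0.0371). Without IEC2 replicate C it was -0.36 (adjusted p = 0.149), without AOC replicate A, B or C the adjusted p was 0.0822, 0.0858 and 0.0739, and with median-of-ratios scaling it was -0.33 (adjusted p = 0.204, the range over 13 alternatives being 0.00421 to 0.204).

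ACVR2B (ENSSSCG00000011257, chr13:23237699-23276086) was the lesser type II receptor gene in every library, and was highest at day 4. Its FPKM was 0.311, 0.374 and 0.328 in IEC2, 0.818, 0.783 and 1.03 in IEC4, 0.295, 0.275 and 0.546 in IEC12, and 0.147, 0.131 and 0.0711 in AOC. IEC4 lay above and AOC below all other libraries, and IEC2 and IEC12 overlapped. ACVR2B did not pass the filter, but in the fit without the filter it differed in 5 of the 6 comparisons. It rose by 0.49 from IEC2 to IEC4 (adjusted p = 0.0118), fell by 0.46 from IEC4 to IEC12 (adjusted p = 0.0141), and in AOC was lower by -0.26, -0.75 and -0.29 than in IEC2, IEC4 and IEC12 (adjusted p = 0.032, 5.03e-05 and 0.0205). In that fit 22.3% of 18415 genes were called from IEC2 to IEC4 and 26.1% from IEC4 to IEC12, and 41.1, 47.8 and 38.2% of 18889 genes were called for AOC against IEC2, IEC4 and IEC12. The difference of IEC12 from IEC2 was 0.03, with a 95% interval of -0.2 to 0.27, and 24.3% of genes were called there.

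**Figure D2:**
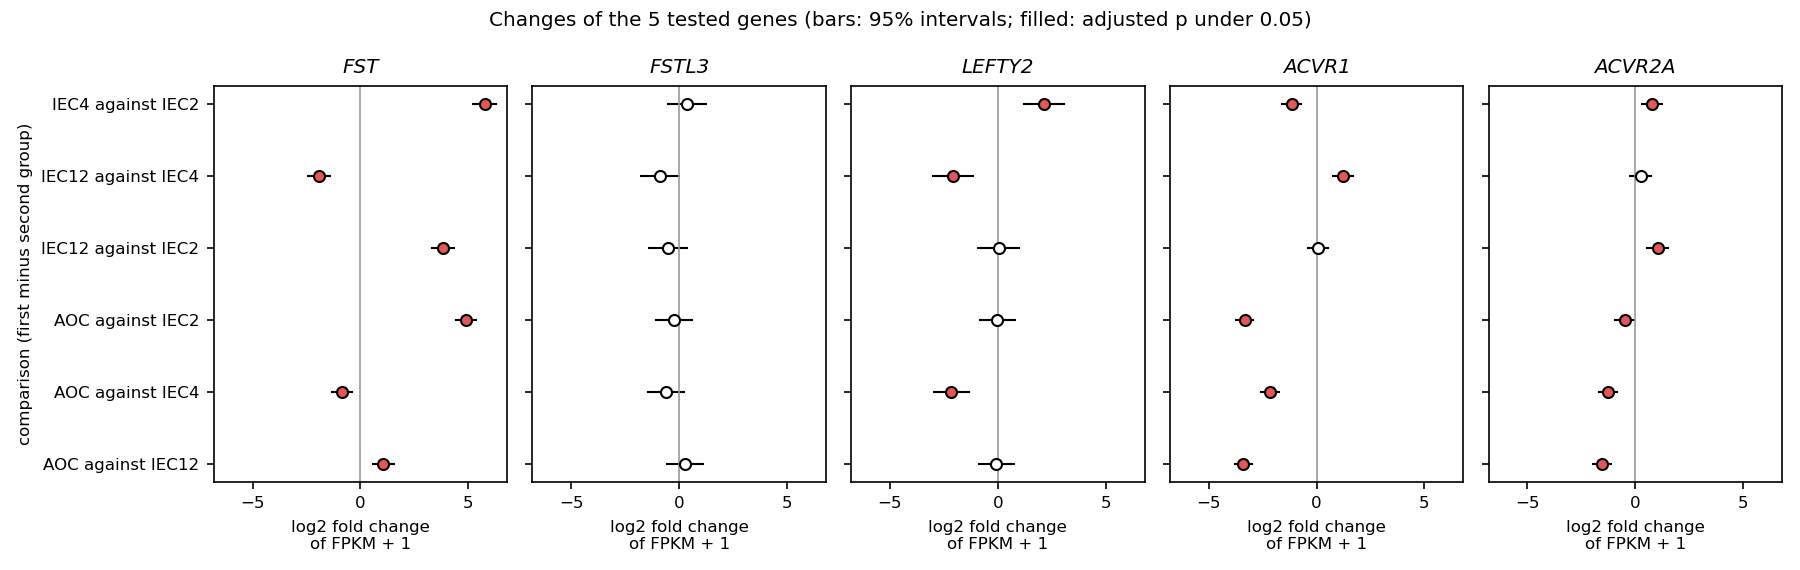
Differences in log2(FPKM + 1) with 95% intervals (horizontal axes) for the 5 genes that passed the filter, in the 6 comparisons between groups; filled and open points mark differences past and not past an adjusted p of 0.05. FST lay far to the right in IEC4 against IEC2 (5.75), in IEC12 against IEC2 (3.83) and in AOC against IEC2 (4.89), while ACVR1 lay to the left in all 3 comparisons with AOC.

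The balance of the receptors differed between all groups. The sum of ACVR1 and ACVR1B over the sum of ACVR2A and ACVR2B was 9.22, 10.8 and 8.54 in IEC2, 1.83, 2.05 and 2.27 in IEC4, 4.47, 4.64 and 4.07 in IEC12, and 1.08, 1.33 and 1.22 in AOC. The 4 groups did not overlap, and this ratio within a library does not change with the scaling of the library. Type I receptor transcript here was nearly all ACVR1. No test of the ratios was made. An exact permutation test of 3 libraries against 3 allows no p below 0.10.

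Set against the type II receptors, FST also separated the groups. FST over the sum of ACVR2A and ACVR2B was 0.854 ± 0.0533 in IEC2, 7.69 ± 3.24 in IEC12, 31.8 ± 9.58 in IEC4 and 59.7 ± 6.82 in AOC (SD, n = 3). AOC was highest in this ratio although IEC4 had more FST, and AOC had the least type II receptor transcript, 1.85 ± 0.0136 FPKM against 6.51 ± 0.358 in IEC4. No library of a group overlapped with those of another group.

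**Figure D3:**
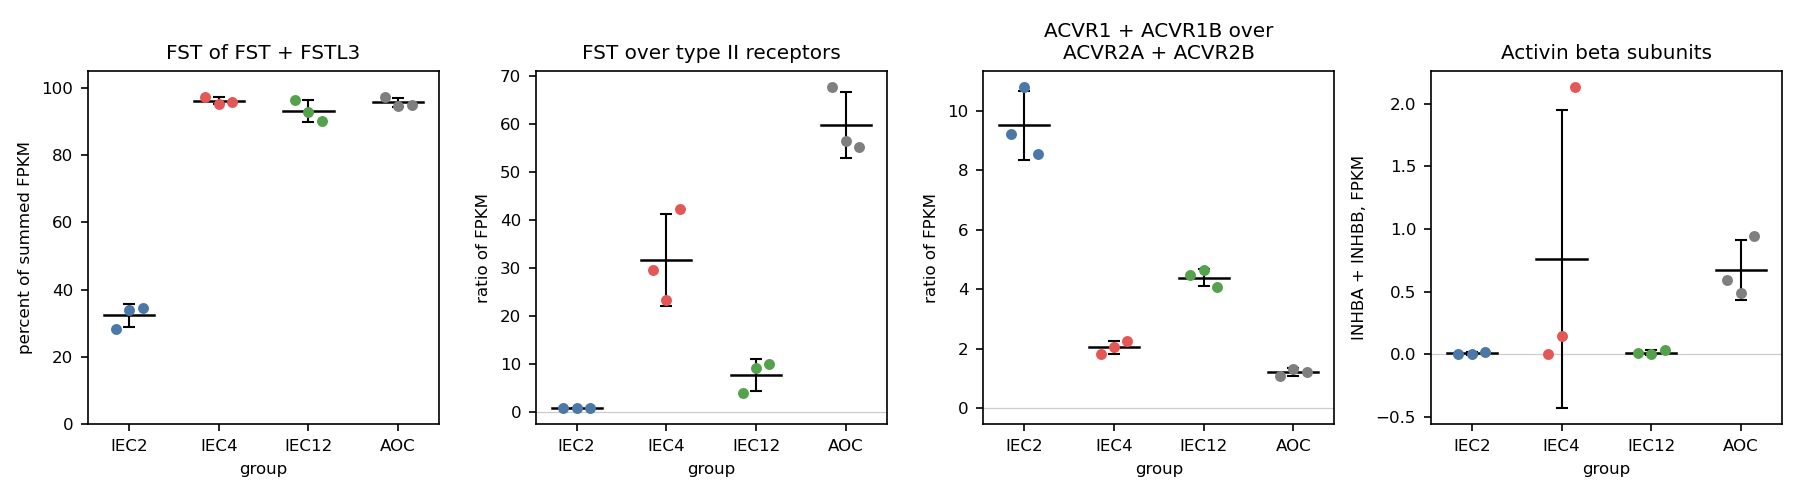
The share of FST in the antagonist sum (percent), the ratios of FST and of type I receptors to type II receptors, and the sum of INHBA and INHBB in FPKM (vertical axes) for the 4 groups, with points for the 3 libraries and bars for the mean ± SD. The type I over type II receptor ratio was 8.54 to 10.8 in IEC2 and 1.08 to 1.33 in AOC, and the share of FST in the antagonist sum was 28.4 to 34.6% in IEC2 and at least 90.1% in the other groups.

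Counted over the comparisons, the 5 of 10 genes that could be tested were FST, FSTL3, LEFTY2, ACVR1 and ACVR2A. From IEC2 to IEC4, 3 were higher and 1 lower, where 37.3% of all genes tested were called (24.8% higher and 12.5% lower), and their median difference was 0.77 against 0.2 over all genes. From IEC4 to IEC12, 1 was higher and 2 were lower, with 44.2% of all genes called (17.3% higher and 26.9% lower) and medians of -0.88 and -0.15. From IEC2 to IEC12, 2 were higher and none lower, with 43.6% of all genes called (24.2% higher and 19.3% lower) and medians of 0.06 and 0.03. In AOC, 1 was higher and 2 were lower than in IEC2, with 63.8% of all genes called, 26.7% higher and 37.1% lower. Against IEC4 none was higher and 4 were lower, with 69.1% of all genes called, 22.1% higher and 47% lower. Against IEC12 1 was higher and 2 were lower, with 58.5% of all genes called, 22.4% higher and 36.2% lower. The medians for AOC were -0.25, -1.28 and -0.07, against -0.2, -0.45 and -0.21 over all genes. In the comparisons with IEC4 the counts include LEFTY2, whose calls there the filter built in, and it enters the medians too. With 5 genes these counts do not set the list apart from the other genes.

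By the limits the study used for AOC against iPS cells, a comparison not analysed here, p and adjusted p under 0.001 and an absolute log2 difference above 3, FST was called from IEC2 to IEC4, from IEC2 to IEC12 and in AOC against IEC2. ACVR1 was called in AOC against IEC2 and IEC12. These limits called 1.18, 0.939 and 1.22% of all genes between stages (IEC2 to IEC4, IEC4 to IEC12 and IEC2 to IEC12) and 5.47, 5.17 and 4.41% for AOC against IEC2, IEC4 and IEC12.

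The rest of the pathway was read from a list of 34 further genes, of which 24 were matched by symbol and 7 passed the filter. Of the 24 matched, 14 stayed below 1 FPKM in all libraries. Among the 7 tested, 3 were higher and 1 lower from IEC2 to IEC4, 4 higher and 2 lower from IEC4 to IEC12, and 3 higher and 1 lower from IEC2 to IEC12. In AOC, 1 was higher and 4 were lower than in IEC2, 5 were lower than in IEC4, and 1 was higher and 4 were lower than in IEC12. The share of all genes called in the same comparisons was 37.3, 44.2 and 43.6% between the stages and 63.8, 69.1 and 58.5% for AOC, so these counts do not set the list apart. Of these 29 calls, 18 were kept under every alternative setting, the stricter limits of the study not being among those settings. The counts and the 18 include the calls of FURIN against IEC4. Only its IEC4 libraries reached an FPKM of 1, so the filter built these calls in.

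PCSK6, a convertase that cleaves nodal precursors, rose between all stages. Its FPKM was at most 0.452 in IEC2, 10.3 to 12.3 in IEC4, 18.1 to 22.6 in IEC12 and 3.25 to 4.08 in AOC, with no overlap between groups. The difference was 3.33 from IEC2 to IEC4 (adjusted p = 3.63e-06) and 0.81 from IEC4 to IEC12 (adjusted p = 0.00725), and the second of these lost its call with a pseudocount of 0.1 (adjusted p = 0.197). FURIN, a related convertase, was highest in IEC4 at 1.02 to 1.38 FPKM. It rose by 0.64 from IEC2 (adjusted p = 0.0122) and fell by 0.75 to IEC12 (adjusted p = 0.00513), but only its 3 IEC4 libraries reached an FPKM of 1, so these differences were built into its being tested. BAMBI, a receptor without a kinase that dampens this family of signals, was 27.6 to 54.3 FPKM in IEC12, at most 5.31 in the other IEC libraries and 0.416 to 0.596 in AOC.

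SMAD2, SMAD3 and SMAD4 were above 1 FPKM in every library, while the inhibitory SMAD7 reached at most 1.84. SMAD2, which carries activin and nodal signals, lay between 6.73 and 7.77 FPKM in IEC2, 8.84 and 10.2 in IEC4, 12.9 and 14.5 in IEC12, and 6.23 and 7.41 in AOC. Its net rise from IEC2 to IEC12 was 0.85 (adjusted p = 0.00109), while SMAD3, its close relative, fell over the same stages by 1.0 (adjusted p = 0.00106). The smaller steps of both genes were near the threshold, with adjusted p from 0.0269 to 0.0496, and each was called in 4 to 9 of 14 alternatives. SMAD4, the partner of both, was 4.55 to 5.68 FPKM in AOC and 9.62 to 12.9 in IEC12, a difference of -1.01 (adjusted p = 0.000115).

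Several of the listed genes known as responses to activin and nodal in mesendoderm were low. EOMES and MIXL1 were listed at 0 in all 12 libraries, and GSC and MESP1 reached at most 1.16 and 0.508 FPKM. TBXT (Brachyury), SOX17 and FOXA2 of the same list were not matched by symbol, so their levels are unknown. The study itself measured Brachyury, MIXL1 and MESP1 by RT-qPCR and reported low mesodermal markers at day 2 of induction. At day 4 it found these genes higher in its control cells than in some groups given a TGF-β receptor inhibitor. How this relates to the low values here, and whether a mesendoderm response was absent, was not tested. NANOG, a pluripotency factor, reached 1.07 FPKM in IEC12 and at most 0.53 elsewhere. GATA6, a factor of endoderm and heart, was 0.613 to 1.08 FPKM in IEC2, 0.579 to 2.02 in IEC4, 1.52 to 2.28 in IEC12 and 1.56 to 1.99 in AOC, and passed the test in none of the 6 comparisons. The nearest was AOC against IEC2 (0.55, adjusted p = 0.0502), called in 3 of 13 alternatives. With median-of-ratios scaling GATA6 was called higher in AOC than in IEC2 and IEC4 (adjusted p = 0.0112 and 0.0123). FOXH1, the nuclear partner of SMAD2 in nodal responses, was 0.37 to 0.825 FPKM in IEC4, at most 0.104 in the other IEC libraries and listed at 0 in AOC, and it was not tested. ACVR1C, the other type I receptor for nodal, was at most 0.725 FPKM, and the co-receptor genes TDGF1 and CFC1 were not matched by symbol.

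**Figure D4:**
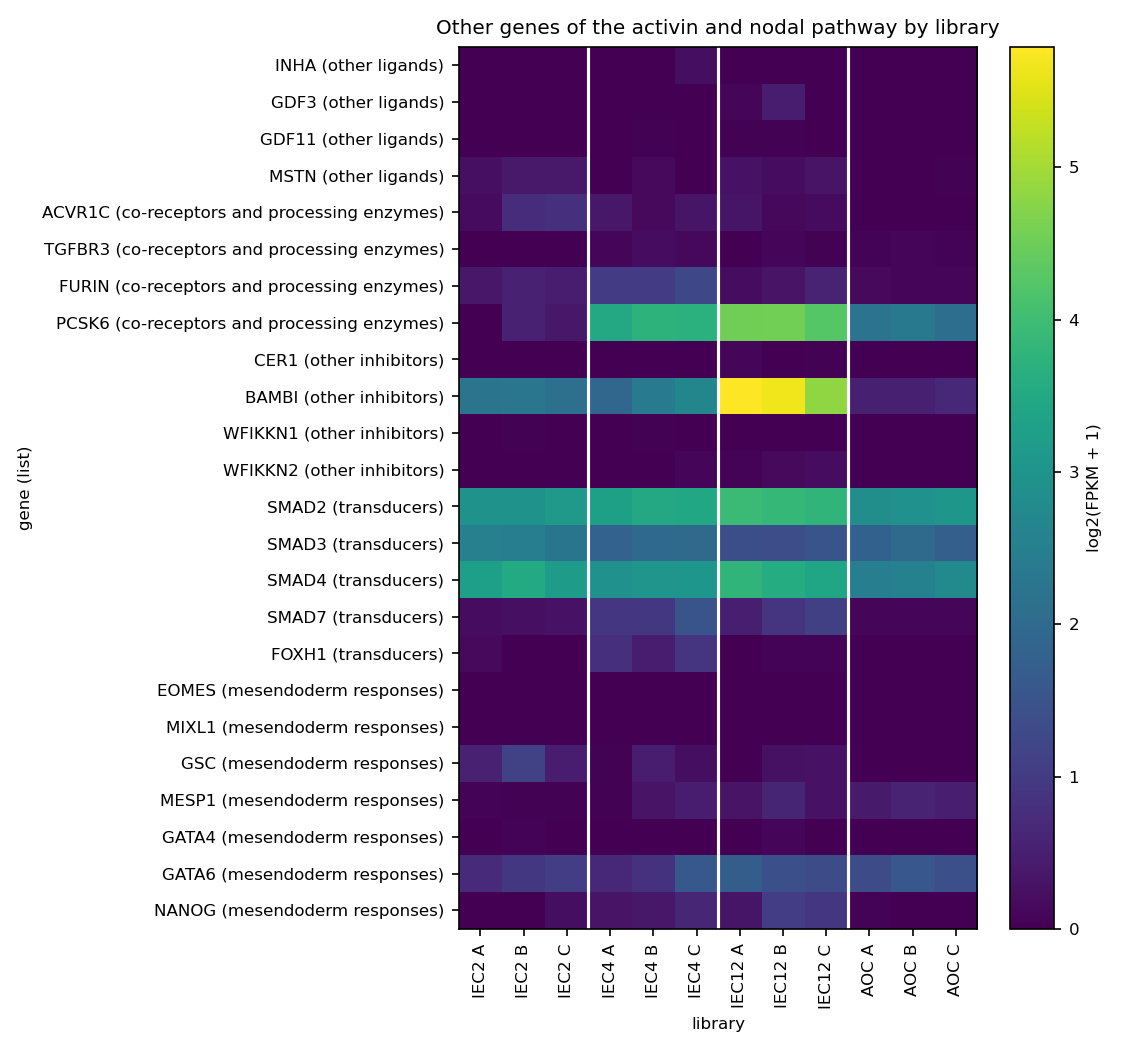
Levels of the 24 matched further genes of the pathway, with the list each belongs to in brackets (vertical axis), in the 12 libraries (horizontal axis), with colour for log2(FPKM + 1). PCSK6 was lowest in IEC2 (at most 0.452 FPKM), BAMBI highest in IEC12 (27.6 to 54.3 FPKM), and the other ligand genes were at the dark, low end of the scale in nearly all libraries.

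The pattern of FST over the 12 libraries was most like that of IFI35, SWAP70 and SRPX, of 9158 genes with a symbol. Likeness was the mean absolute difference of log2(FPKM + 1) after centring each gene, which was 0.798, 0.813 and 0.813 for these genes against a median of 1.87. IFI35 had means of 2.5, 27.7, 17.4 and 31.1 FPKM in IEC2, IEC4, IEC12 and AOC, so it was not lower in AOC than in IEC4 as FST was. SWAP70 was 0.277 ± 0.115 FPKM in IEC2 and 118 ± 12.4 in AOC (SD, n = 3), and SRPX 1.07 ± 0.435 and 18.3 ± 1.82. The genes most like INHBA were CD14, COL4A2 and RAPGEF2, at 0.173, 0.182 and 0.19 against a median of 0.629. CD14 and COL4A2 were 1.11 ± 1.46 and 0.694 ± 0.947 FPKM in IEC4 (SD, n = 3). INHBA in IEC4 rests on replicate C, so this likeness includes a wide spread within that group. Those most like NODAL were SLMAP, PAXIP1 and R3HDM1, at 0.0783, 0.0832 and 0.0857. NODAL spanned only 0.189 on the log2 scale, so this likeness shows genes that hardly varied.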

How the data were processed

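RNA was amplified with the Smart-Seq2 protocol and sequenced in 12 libraries, 3 each of IEC2, IEC4, IEC12 and AOC. The authors processed the reads on Galaxy and deposited FPKM values for 19681 Ensembl pig genes, 1 table per library. The submitters' processing notes name Bowtie2 2.2.3, TopHat2 2.0.12, Cufflinks 2.2.1 and the build susScr11, which is Sscrofa11.1. The annotation and any scaling between libraries are not given in the sources used here. Whether strand was used is not given either, so values of genes that overlap others are uncertain.

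Symbols came from a table of gene names that matched 13998 identifiers. Positions are those of RefSeq genes with the same symbol on Sscrofa11.1. A gene was tested if 3 or more libraries of the fit had an FPKM of 1 or above, with limma 3.58.1 in R 4.3.3 (lmFit, contrasts.fit and eBayes with trend) on log2(FPKM + 1), 2-sided. Comparisons between stages used the 9 IEC libraries (10542 genes), and those with AOC all 12 (11053 genes). A call was an adjusted p under 0.05. The script was tested on simulated data. Summaries and figures used pandas 2.3.3, NumPy 2.4.6 and matplotlib 3.10.9 in Python 3.11.15.

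The 10 genes, the pathway lists and the marker lists were chosen with earlier results of these data known. All 10 genes are named, other genes come from those lists, and the genes most alike in pattern are the 3 with the smallest mean absolute difference to FST, INHBA and NODAL. PCSK6, FURIN, BAMBI, SMAD2, SMAD3, SMAD4, FOXH1, GSC and MESP1 were picked from the lists after their values were seen. A single listed gene is not reported here. Low values lie on steps, which gave a relative depth of 0.862 to 1.19 for 11 libraries. The steps of IEC12 replicate A fitted more than 1 depth. No interval from counts is given. No 2 libraries were identical. No sequences are printed, since no sequence tables or genome were used here.

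The alternatives were a pseudocount of 0.1, no filter, only the groups compared, a replicate block, equal totals, median-of-ratios scaling, a variance that did not follow expression, a single fit of all 12 libraries, the stricter limits and each library left out in turn.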

Additional observations from a re-analysis of the deposited data

How the results depend on the processing

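Over 405 alternative values for the 5 genes tested in 6 comparisons, 385 kept the direction and the side of the threshold, 13 lost the call, 1 gained it and 6 turned direction. These values leave out the stricter limits, which are counted separately below. Of 19 calls, 16 were kept under every alternative apart from those limits. The call was kept in 80 of 81 values for FST, 67 of 67 for ACVR1 and 55 of 67 for ACVR2A. The 16 include 3 calls of LEFTY2 against IEC4, which the filter built in and which say nothing of stability. The values that turned were all small and not past the test. The difference of ACVR1 between IEC12 and IEC2 was -0.21 with equal totals, -0.13 without IEC12 replicate A and -0.03 without IEC2 replicate A (-0.13 to 0.27 with a library left out). That of LEFTY2 was -0.01 for IEC12 against IEC2 without IEC12 replicate C (-0.01 to 0.08) and 0.02 for AOC against IEC2 without IEC2 replicate A (-0.05 to 0.02), and that of FSTL3 was -0.23 for AOC against IEC12 without IEC12 replicate A (-0.23 to 0.61). The call gained was FSTL3 from IEC4 to IEC12 without IEC12 replicate C (-1.22, adjusted p = 0.0299, with 0.0299 to 0.292 over 14 alternatives). Under the stricter limits 1, 0 and 1 of the 5 genes were called from IEC2 to IEC4, IEC4 to IEC12 and IEC2 to IEC12, and 2, 0 and 1 for AOC against IEC2, IEC4 and IEC12. Leaving out a library gave 3 to 4, 3 to 4 and 2 to 2 genes called between the stages in that order, and 2 to 3, 4 to 4 and 3 to 3 for AOC. The cause of these changes was not tested.

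Correlations of same-lettered deviations ran from -0.514 to 0.246 over 18 pairs. Pairs with different letters were not compared, so this does not settle whether the replicate letters pair the libraries. With the letter as a block 4, 3, 2, 2, 4 and 3 genes were called in the 6 comparisons, and the block changed 1 call, ACVR2A in AOC against IEC2 (adjusted p = 0.0546). Median-of-ratios scaling moved the median of all genes from 0.197 to -0.002 from IEC2 to IEC4, from -0.148 to 0.034 from IEC4 to IEC12, and from -0.201 to -0.021, -0.45 to -0.054 and -0.215 to -0.023 for AOC against IEC2, IEC4 and IEC12. Equal totals moved it to -0.314 from IEC4 to IEC12, to -0.181 from IEC2 to IEC12 and to -0.446 and -0.645 for AOC against IEC2 and IEC4. Median-of-ratios scaling took the call from FST in AOC against IEC4 and from SMAD2 in the same comparison (adjusted p = 0.996). The depth behind the FPKM values is unknown, so the counting error of values below 1 FPKM, which include INHBB, NODAL and ACVR1B in all libraries, is not known.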
